A study of Homo sapiens with 6 samples.

Results

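Lung identity was read from 9 genes in NCI-H1975, a human cell line from a non-small cell lung cancer. They are the lineage factors NKX2-1, FOXA1 and FOXA2, the surfactant and secretory genes SFTPB, SFTPC and NAPSA, the alveolar type 1 gene AGER, and SOX2 and TP63, which mark airway, basal and squamous cells. The 9 genes were taken by name, through their Ensembl identifiers, from the 60960 features of 1 deposited expression table, and all 9 were found.

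Bulk RNA sequencing covered 3 libraries labelled siGFPT2, from cells given a small interfering RNA against GFPT2, and 3 libraries labelled siNC, the control small interfering RNA. All 6 come from the same line, and nothing in the labels says that the replicates of a group were separate cultures, so any p-value reflects the spread among these libraries, which may be technical. The extraction text also speaks of almonertinib, of EGF and of EGFR knockdown, yet no sample carries these as a treatment. Levels are deposited FPKM, which divide the fragments of a gene by its length and by the depth of the library, and libraries held 22198121 to 27234880 counted fragments in siGFPT2 and 21899321 to 24493042 in siNC.

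NKX2-1, also called TTF-1, is a homeodomain factor that specifies the lung during development and drives surfactant genes in alveolar type 2 cells, and FOXA1 and FOXA2 are forkhead factors that open chromatin at many of the same genes. Surfactant proteins B and C lower surface tension in the alveolus, and napsin A, encoded by NAPSA, is a protease that helps to process surfactant protein B. In pathology NKX2-1 and napsin A mark lung adenocarcinoma, while p63, encoded by TP63, marks squamous carcinoma.

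The targeted gene was examined first. GFPT2, an enzyme of hexosamine synthesis, had 8.94, 7.58 and 8.72 FPKM in siGFPT2 and 10.1, 9.30 and 8.28 FPKM in siNC. siGFPT2 and siNC overlapped, with a log2 fold change of -0.13 (limma adjusted p = 0.9999, n = 3 each, 95% interval -0.43 to 0.17). "siGFPT2" below therefore names the libraries with that label and not a measured loss of GFPT2. A pair of libraries stood apart from the rest, siGFPT2 replicate 2 and siNC replicate 3, in which long transcripts read low: features longer than 6 kb lay at a median of -0.15 and -0.27 on the log2 scale relative to their mean over the 6 libraries, against 0.05 to 0.15 in the other 4. Epithelial genes were high, with KRT19 at 493 ± 83.9 FPKM in siGFPT2 and 542 ± 120 in siNC (SD, n = 3 each), and the leukocyte gene PTPRC did not exceed 0.0134 FPKM in any library.

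The 9 genes spread over more than 3 orders of magnitude. NKX2-1 was highest at 29.9 ± 1.80 FPKM over the 6 libraries (SD, n = 6), followed by FOXA2 at 14.6 ± 1.16, SOX2 at 6.92 ± 0.531 and AGER at 2.72 ± 0.327. NAPSA at 0.661 ± 0.0845, TP63 at 0.660 ± 0.183 and FOXA1 at 0.594 ± 0.171 formed a second tier below 1 FPKM. SFTPB at 0.0401 ± 0.0201 and SFTPC at 0.0174 ± 0.0103 lay at the limit of detection. From NKX2-1 down to NAPSA the order was the same in 6 of 6 libraries and no neighbouring ranges overlapped. NAPSA, TP63 and FOXA1 were not separable from each other, with NAPSA above TP63 in 3 of 6 libraries and TP63 above FOXA1 in 5 of 6. FOXA1 exceeded SFTPB in 6 of 6 libraries, and SFTPB exceeded SFTPC in 5 of 6 with overlapping ranges.

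**Figure D1:**
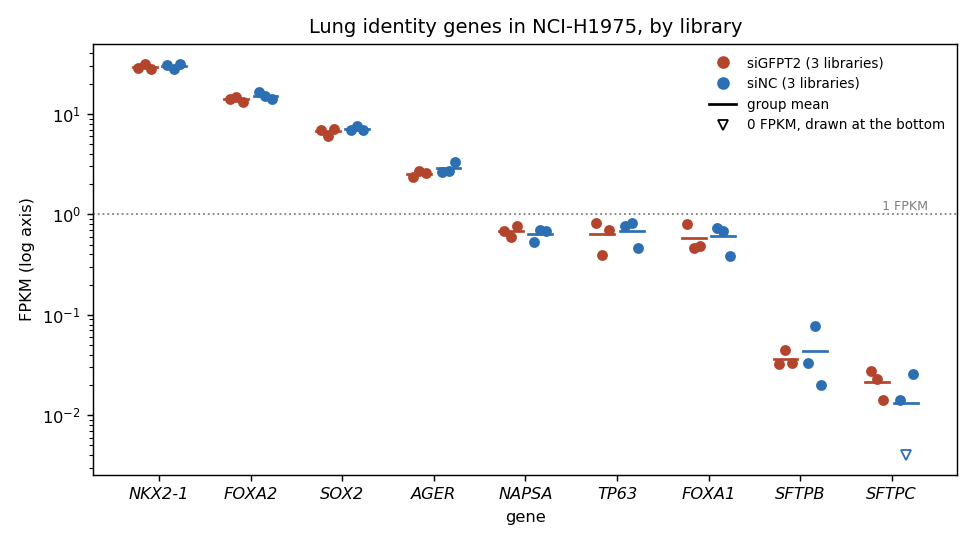
FPKM (log axis) of the 9 lung identity genes in each of the 3 siGFPT2 and 3 siNC libraries, with bars for group means and an open triangle for the siNC library in which SFTPC was 0. Levels run from 29.9 FPKM for NKX2-1 to 0.0174 FPKM for SFTPC, and the groups overlap for every gene.

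NKX2-1 (ENSG00000136352, minus strand of chromosome 14, 36516392 to 36521149 in GENCODE 29 on GRCh38, 4 exon blocks) had 28.8, 31.7 and 27.7 FPKM in siGFPT2 and 30.9, 28.3 and 31.7 FPKM in siNC. No library was without it, the highest was 1.14 times the lowest, and the groups overlapped. These values rest on 1948 to 2736 fragments in siGFPT2 and 1962 to 2461 in siNC. Its mean level exceeded that of 93.2% of the 19861 protein-coding features. The mean was 29.4 ± 2.07 FPKM in siGFPT2 and 30.3 ± 1.80 in siNC (SD, n = 3 each), a log2 fold change of -0.04 (SE 0.11, 95% interval -0.30 to 0.21, exact permutation p = 0.7, limma adjusted p = 0.9999). The interval, which is not adjusted for the 12896 features tested, spans a change of -18.6% to 15.6%. A change of NKX2-1 mRNA within it would not be detectable with these libraries, and a larger one could also miss the adjusted threshold. In bulk samples, fewer cells that express a gene and less of its RNA per cell cannot be told apart.

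FOXA2 (ENSG00000125798, chromosome 20, minus strand, 22581005 to 22585455) had 13.9, 14.7 and 13.2 FPKM in siGFPT2 and 16.6, 15.0 and 14.1 FPKM in siNC. The highest siGFPT2 library lay above the lowest siNC library, which makes the groups overlap. Its log2 fold change was -0.12 (SE 0.11, 95% interval -0.38 to 0.14, exact permutation p = 0.2, limma adjusted p = 0.9999). NKX2-1 exceeded FOXA2 by 1.86 to 2.25 times across the 6 libraries.

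FOXA1 (ENSG00000129514, chromosome 14, minus strand, 37589984 to 37596059) was the low forkhead factor, at 0.808, 0.458 and 0.490 FPKM in siGFPT2 and 0.737, 0.683 and 0.388 FPKM in siNC. Of the 6 libraries, 3 lay at or above 0.683 and the other 3 at or below 0.490, and both groups had libraries on each side. FOXA2 stood above FOXA1 in every library, by 17.3 to 36.3 times. FOXA1 fell short of the 1 FPKM needed for the main test; in the fit with no filter its log2 fold change was -0.03 (95% interval -0.81 to 0.74, exact permutation p = 1, limma adjusted p = 0.9999). The coefficient of variation over the 6 libraries was 28.8% for FOXA1, where counting error alone gives 12.8%, against 7.96% and 3.28% for FOXA2.

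Genes beside the lineage factors were also read. SFTA3, a surfactant-associated gene next to NKX2-1, averaged 3.83 ± 0.309 FPKM in siGFPT2 and 3.80 ± 0.511 in siNC, and NKX2-8, a homeodomain gene of the same region, 2.44 ± 0.421 in siGFPT2 and 2.76 ± 0.189 in siNC (SD, n = 3 each). The antisense transcript NKX2-1-AS1 averaged 0.627 ± 0.0305 FPKM in siGFPT2 and 0.696 ± 0.0964 in siNC. Its exons cover 402 bases (12.7%) of those of NKX2-1, and since the sources do not state strand, reads there cannot be told apart. NKX2-1 was 40.6 to 52.9 times higher than NKX2-1-AS1 in every library. LINC00261, a noncoding neighbour of FOXA2, averaged 1.07 ± 0.122 FPKM in siGFPT2 and 1.01 ± 0.204 in siNC, and most of its exon sequence (86.1%) is shared with an overlapping annotated gene.

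Surfactant transcripts were close to absent. SFTPB (ENSG00000168878, chromosome 2, minus strand, 85657314 to 85668741, 13 exon blocks) was supported by 3, 5 and 3 fragments in siGFPT2 and by 3, 7 and 2 in siNC, which is 0.0321, 0.0447 and 0.0329 FPKM in siGFPT2 and 0.0330, 0.0778 and 0.0199 FPKM in siNC. The highest and the lowest library were both siNC. The spread between libraries was no larger than counting error, with a coefficient of variation of 50.1% where counting alone gives 51.1%. NKX2-1 exceeded SFTPB by 364 to 1598 times across the libraries.

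The sequence before the SFTPB start is shown because it holds letters of the kind the 2 abundant lineage factors bind, upstream of a gene that gave almost no transcript. Capitals mark CAAG or its reverse complement CTTG, the core of sites bound by NKX2-1, and TGTTT or AAACA, part of sites bound by forkhead factors. The SFTPB stretch is chr2:85668252-85668449 on the minus strand of GRCh38.p14, from RefSeq, part of the 250 bases before the start at 85668199. In it CAAG begins 225 and 113 bases before the start, and AAACA 81 bases before it. In either orientation, the full 250 bases hold 3 matches of CAAG and 1 of TGTTT. Another RefSeq start of SFTPB, at 85668741, is not shown, and its 250 bases hold 1 match of CAAG and 2 of TGTTT. ABCA3, the lipid transporter of lamellar bodies, is shown beside SFTPB as an alveolar type 2 gene with many fragments, as chr16:2340747-2340921 on the minus strand, with 1 CAAG. These 175 bases are also part of a window of 250, which holds 2 matches of CAAG. Matches in the 2 partial stretches are thus not to be compared with each other or with shares over full windows.
SFTPB: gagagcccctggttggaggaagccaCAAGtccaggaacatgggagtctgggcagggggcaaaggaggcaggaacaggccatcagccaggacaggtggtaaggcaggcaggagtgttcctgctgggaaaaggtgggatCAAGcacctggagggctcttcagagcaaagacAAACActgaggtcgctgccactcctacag
ABCA3: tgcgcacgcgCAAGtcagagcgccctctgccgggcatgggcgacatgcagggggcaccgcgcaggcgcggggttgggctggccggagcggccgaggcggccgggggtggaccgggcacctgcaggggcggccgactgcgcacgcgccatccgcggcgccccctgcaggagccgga
Such short motifs are common, and the matches shown do not overlap each other. CAAG in either orientation was present in 80.89% of 35116 windows of the 250 bases before RefSeq starts, TGTTT in 40.38%, and both in 34.79%. The matches describe these letters and say nothing about binding in these cells. Windows were found for 7 of the 9 genes.

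SFTPC (ENSG00000168484, chromosome 8, plus strand, 22156913 to 22164479) had 2, 2 and 1 fragments in siGFPT2 and 1, 0 and 2 in siNC. With none counted, siNC replicate 2 allows up to 0.0430 FPKM at 3 counts, above every value measured for SFTPC in the other libraries. No difference between the groups was detectable at this depth for either surfactant gene. The fit with no filter gave a log2 fold change of -0.05 for SFTPB (95% interval -0.51 to 0.40, limma adjusted p = 0.9999). For SFTPC it gave 0.11 (95% interval -0.21 to 0.42, limma adjusted p = 0.9999). Both lie on the log2(FPKM + 0.1) scale, where the pseudocount exceeds every measured value and shrinks any change.

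NAPSA (ENSG00000131400, chromosome 19, minus strand, 50358477 to 50365830) was low but counted in every library, at 0.688, 0.595 and 0.767 FPKM in siGFPT2 and 0.530, 0.701 and 0.684 FPKM in siNC. The groups overlapped throughout, and the variation over libraries (12.8%) was within counting error (13.4%). Its log2 fold change was 0.09 in the fit with no filter (95% interval -0.41 to 0.59, exact permutation p = 0.6, limma adjusted p = 0.9999). The pseudogene NAPSB, a near-identical copy, read at 0.759, 0.556 and 0.729 FPKM in siGFPT2 and 0.755, 1.26 and 0.512 FPKM in siNC. Shared reads could be split between the copies in either direction, so the NAPSA level is uncertain. NKX2-1 exceeded NAPSA by 36.1 to 58.3 times across libraries.

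Other alveolar type 2 genes ranged from nearly silent to abundant. Of 17 other genes of this list, 8 averaged at least 1 FPKM, 7 averaged under 0.1 FPKM and 1 of these was 0 in all libraries. SLC34A2 and CLDN18 lay between, at 0.236 ± 0.0199 and 0.102 ± 0.0311 FPKM over the 6 libraries (SD, n = 6). ABCA3 averaged 6.36 ± 0.867 FPKM in siGFPT2 and 6.98 ± 1.68 in siNC (SD, n = 3 each), 99.4 to 255 times SFTPB. LPCAT1, which makes surfactant phospholipid, averaged 75.2 ± 5.40 FPKM in siGFPT2 and 75.9 ± 7.29 in siNC, and LAMP3, a lamellar body protein, 1.93 ± 0.397 in siGFPT2 and 1.92 ± 0.395 in siNC. The collectin genes SFTPA1, SFTPA2 and SFTPD had 0 to 2 fragments per siGFPT2 library and 0 to 5 per siNC library, and SFTPA1 and SFTPA2 are close copies whose reads can be shared. None of the 8 tested genes passed the adjusted threshold in limma, 4 lay above 0 and 4 below, and their median log2 fold change was 0.00 against 0.03 over all 12896 features tested. The most abundant of them, SCD and FASN, make fatty acids in many cell types and are not particular to the alveolus.

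**Figure D2:**
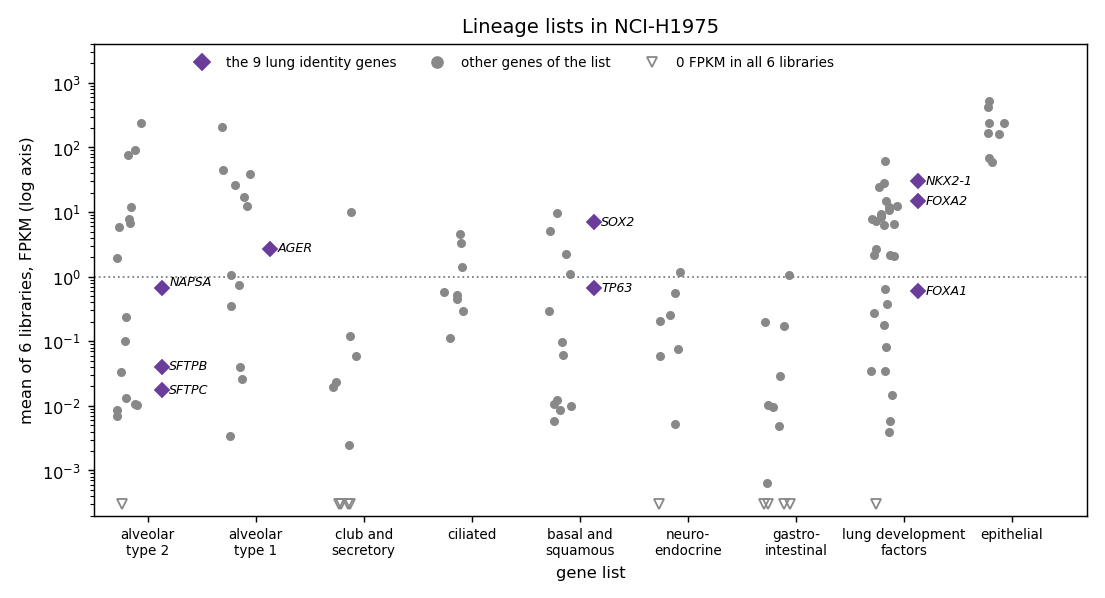
Mean FPKM over the 6 libraries (log axis) of each gene in 9 lineage lists, with the 9 lung identity genes as diamonds, other genes as circles and genes at 0 in all libraries as triangles at the bottom. Within the alveolar type 2 list SFTPB (0.0401 FPKM) and SFTPC (0.0174 FPKM) lie far below LPCAT1 and ABCA3, while NKX2-1 and FOXA2 are among the higher lung development factors.

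AGER, the receptor for advanced glycation end products and a marker of alveolar type 1 cells, had 2.33, 2.69 and 2.61 FPKM in siGFPT2 and 2.66, 2.71 and 3.33 FPKM in siNC. siNC replicate 3 lay above the rest, and the other siNC libraries lay close to the 2 higher siGFPT2 libraries. The gene (ENSG00000204305, chromosome 6, minus strand, 32180968 to 32184324) rests on 110 to 152 fragments in siGFPT2 and 122 to 169 in siNC. Its log2 fold change was -0.18 (SE 0.14, 95% interval -0.52 to 0.16, exact permutation p = 0.2, limma adjusted p = 0.9999).

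Other markers of that cell ranged from nearly absent to abundant. PDPN, a surface glycoprotein of type 1 cells, averaged 0.0397 ± 0.0499 FPKM in siGFPT2 and 0.0396 ± 0.0190 in siNC, and the water channel AQP5 0.0286 ± 0.0250 in siGFPT2 and 0.0232 ± 0.0240 in siNC (SD, n = 3 each). HOPX, a homeodomain protein of type 1 cells, averaged 0.342 ± 0.0404 FPKM in siGFPT2 and 0.361 ± 0.0933 in siNC. RTKN2 of the same list averaged 1.11 ± 0.199 FPKM in siGFPT2 and 0.984 ± 0.288 in siNC. EMP2 was higher, at 12.1 ± 0.205 FPKM in siGFPT2 and 12.3 ± 0.347 in siNC. GPRC5A reached 26.4 ± 2.76 FPKM in siGFPT2 and 26.3 ± 3.16 in siNC. CAV1, which builds caveolae in type 1 and many other cells, averaged 213 ± 14.6 FPKM in siGFPT2 and 204 ± 19.2 in siNC. Of 12 other genes of the list, 7 reached a mean of 1 FPKM and 0 passed the adjusted threshold in limma, with 4 log2 fold changes above 0 and 3 below. RTKN2, among those above 0, passed the filter of 1 FPKM only through siGFPT2.

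SOX2 (ENSG00000181449, chromosome 3, plus strand, 181711924 to 181714436, 1 exon) is a high mobility group factor of the proximal airway that is often amplified in squamous cancer. It had 6.96, 6.01 and 7.10 FPKM in siGFPT2 and 6.95, 7.65 and 6.86 FPKM in siNC. Both groups held values near 7, with siGFPT2 replicate 2 lowest and siNC replicate 2 highest. The log2 fold change was -0.10 (SE 0.12, 95% interval -0.38 to 0.18, exact permutation p = 0.6, limma adjusted p = 0.9999). SOX2-OT, the long noncoding gene in which SOX2 lies, averaged 0.0490 ± 0.00174 FPKM in siGFPT2 and 0.0459 ± 0.00611 in siNC, and SOX2 exceeded it by 120 to 183 times.

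TP63 (ENSG00000073282, chromosome 3, plus strand, 189631416 to 189897279, 17 exon blocks) encodes the p53-family factor of basal cells. It had 0.812, 0.398 and 0.699 FPKM in siGFPT2 and 0.774, 0.812 and 0.464 FPKM in siNC. The lowest libraries were siGFPT2 replicate 2 and siNC replicate 3, 1 in each group, and the other 4 lay between 0.699 and 0.812. In the fit with no filter the log2 fold change was -0.10 (95% interval -0.89 to 0.69, exact permutation p = 0.7, limma adjusted p = 0.9999). SOX2 exceeded TP63 by 8.57 to 15.1 times.

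Keratins of basal cells varied in a different way from both factors. KRT14 had 0, 1 and 1 fragments in siGFPT2 and 2, 254 and 77 in siNC, and KRT5 had 1, 1 and 4 in siGFPT2 and 2, 92 and 64 in siNC. Only siNC replicates 2 and 3 rose above a handful of fragments for this pair. KRT14 averaged 2.19 FPKM in siNC and 0.0121 in siGFPT2, so it passed the filter of 1 FPKM only through siNC. The filter thus fixed the direction of its change, and its test is no support for a difference. KRT14 reached an unadjusted limma p of 0.0338 and an adjusted p of 0.9999. Its log2 fold change of -3.21 (95% interval -6.08 to -0.33) was -2.03 without siNC replicate 2 and -4.65 without siNC replicate 1. KRT17, an epidermal and basal keratin, had 1.32, 1.73 and 1.65 FPKM in siGFPT2 and 1.65, 3.55 and 3.68 FPKM in siNC, with an adjusted p of 0.9999 in limma. In the same siNC replicates 2 and 3, TP63 was at 0.812 and 0.464 FPKM and SOX2 at 7.65 and 6.86. Of the 12 other basal and squamous genes, 4 reached a mean of 1 FPKM, KRT14 only through siNC, and all 4 had log2 fold changes below 0. Another 7 averaged under 0.1 FPKM, among them the desmosomal gene DSG3 with at most 3 fragments in a library. The summed level of the 12, which was not tested or set against a share over all features, was 15.4 to 15.96 FPKM in siGFPT2 and 19.5 to 25.3 in siNC. Most of it came from few genes, the integrin gene ITGB4 at 9.04 ± 0.804 FPKM in siGFPT2 and 10.2 ± 2.29 in siNC, KRT15 at 4.86 ± 0.436 in siGFPT2 and 5.23 ± 0.516 in siNC (SD, n = 3 each), and KRT17 and KRT14 as above. These genes peaked in different siNC libraries, ITGB4 at 12.3 FPKM in replicate 1, KRT14 at 5.14 in replicate 2 and KRT15 at 5.75 in replicate 3. KRT17 was high in siNC replicates 2 and 3.

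**Figure D3:**
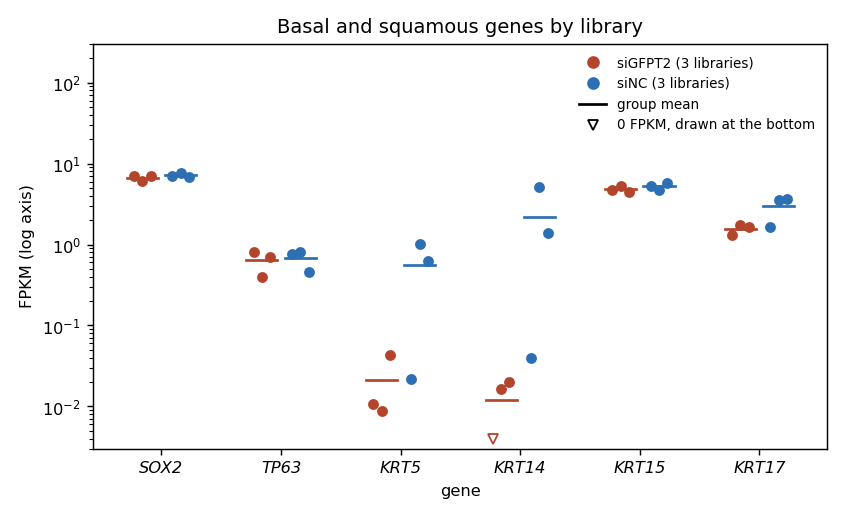
FPKM (log axis) of SOX2, TP63 and 4 keratins in each siGFPT2 and siNC library, with bars for group means and an open triangle for 0. SOX2 and KRT15 are level across libraries, while KRT14 reaches 5.14 and 1.39 FPKM in siNC replicates 2 and 3 and is at most 0.0401 in the other 4 libraries.

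Between the groups, no difference was detected for any of the lung identity genes. In limma, 0 of the 4 genes with a mean of at least 1 FPKM passed an adjusted p of 0.05, where 0% of all 12896 features tested did so. At an unadjusted p under 0.05 the count was 0 of 4, against 84 features (0.651%) in all. By limma-voom on recovered fragments it was also 0, with 60 features under an unadjusted 0.05. The other 5 genes were under the filter and counted as not tested, and in the fit with no filter none of the 9 passed. Groups overlapped for 9 of 9 genes, whereas 3.53% of the tested features had groups that did not overlap. With siGFPT2 the lower group, this was so for 0 of the 4 tested genes against 1.36% of features, and for 0 of the 7 genes averaging at least 0.1 FPKM against 2.52%. Exact two-sided permutation tests over the 6 libraries gave p from 0.2 to 1 for the 9 genes, and the smallest p that 3 against 3 allows is 0.1. All 4 tested genes had log2 fold changes below 0, with a median of -0.11, while 38.6% of all features lay below 0 and their median was 0.03.

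**Figure D4:**
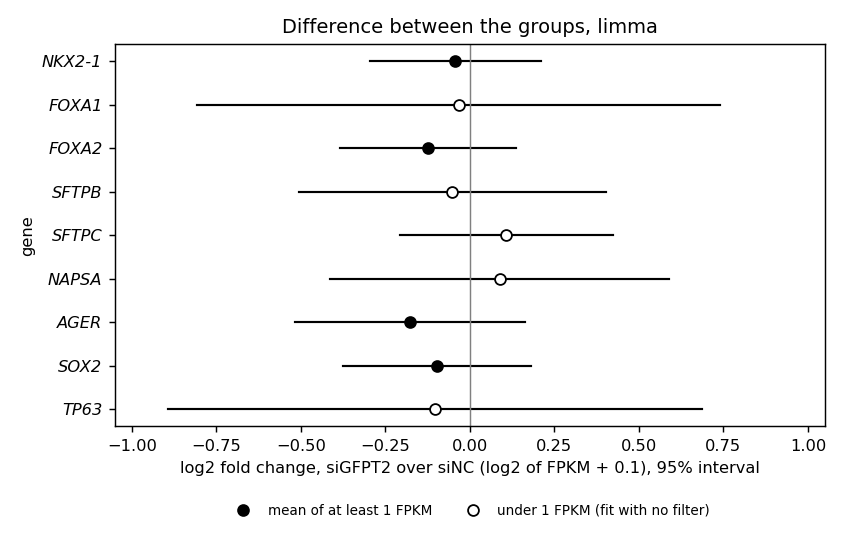
Log2 fold change of each gene, siGFPT2 over siNC, on the log2(FPKM + 0.1) scale with 95% intervals from limma; filled points are the 4 genes with a mean of at least 1 FPKM and open points are from the fit with no filter. Every interval includes 0, and those of TP63 (-0.89 to 0.69) and FOXA1 (-0.81 to 0.74) are widest.

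For TP63 and FOXA1 the variation between libraries was larger than the difference between groups, and it did not follow the labels. TP63 lay 0.57 below its mean on the log2(FPKM + 0.1) scale in siGFPT2 replicate 2 and 0.39 below in siNC replicate 3. FOXA1, also 0.20 below its mean in siGFPT2 replicate 3, lay 0.28 below it in siGFPT2 replicate 2 and 0.47 below in siNC replicate 3. NKX2-1 was 0.09 above its mean in both siGFPT2 replicate 2 and siNC replicate 3. AGER was 0.29 above its mean in siNC replicate 3 and 0.01 below it in siGFPT2 replicate 2. These are the libraries in which long transcripts read low, and the length used was 7479 bases for TP63, 4414 for FOXA1, 3165 for NKX2-1 and 2075 for AGER. In siGFPT2 replicate 2, SOX2 (2512 bases) lay 0.20 below its mean, NAPSA (3581 bases) 0.12 below and SFTPB (4110 bases) 0.06 above. NAPSA and SFTPB varied no more than counting error, and SFTPB had 5 fragments in that library. For TP63, FOXA1, AGER and SOX2 the length is the smallest that gave whole fragment numbers. The part of transcript length in these values was not tested. Without both libraries the difference of mean log2 values was -0.06 for TP63 and -0.15 for FOXA1, against -0.10 and -0.03 with all 6. Without siGFPT2 replicate 2 alone TP63 stood at 0.16, and without siNC replicate 3 alone at -0.32. FOXA1 stood at 0.10 without siGFPT2 replicate 2 and at -0.28 without siNC replicate 3, so the sign of both genes changes with which library is kept.

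**Figure D5:**
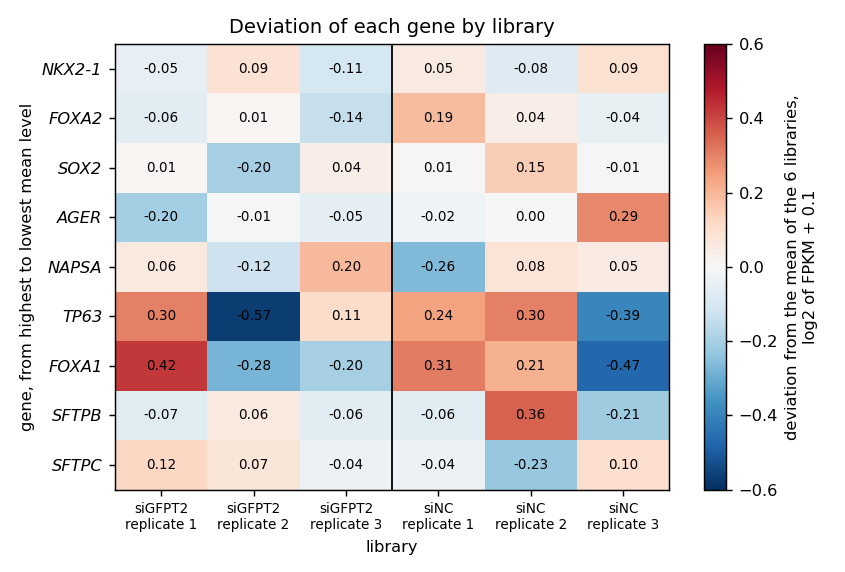
Deviation of each gene from its own mean over the 6 libraries, on the log2(FPKM + 0.1) scale, for the 3 siGFPT2 libraries and then the 3 siNC libraries. TP63 and FOXA1 are low in siGFPT2 replicate 2 and siNC replicate 3, and FOXA1 also in siGFPT2 replicate 3. NKX2-1, FOXA2 and SOX2 stay within 0.20 of their means.

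The features whose deviations over the 6 libraries were most like those of each tested gene were found by the root mean square difference, as a fraction of the gene's own deviation. They were KRBOX4 (0.123) and POLDIP2 (0.129) for NKX2-1, and ATP13A2 (0.208) and CRAT (0.210) for FOXA2. For AGER they were YJU2B (0.239) and FNTB (0.274), and for SOX2 PRKAR2A-AS1 (0.187) and DDX20 (0.246). The list is a description over 6 libraries, and none of the 8 is another of the lung identity genes.

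Other lung development factors and lineages were set beside the 9 genes. Of 28 other lung development factors, 17 reached a mean of 1 FPKM and 0 passed the adjusted threshold in limma, with 11 log2 fold changes above 0 and 6 below and a median of 0.01. GATA6, a zinc finger factor of the distal lung, averaged 2.01 ± 0.155 FPKM in siGFPT2 and 2.09 ± 0.391 in siNC (SD, n = 3 each), and CEBPA, a factor of alveolar type 2 maturation, 0.258 ± 0.0644 in siGFPT2 and 0.297 ± 0.143 in siNC. Secretory airway markers were at or near 0, with SCGB1A1 and SCGB3A1 at 0 in all 6 libraries, apart from AGR2 at 10.1 ± 1.34 FPKM in siGFPT2 and 9.99 ± 3.45 in siNC. Gut-type genes, which can appear when lung tumours lose NKX2-1, were at or near 0 as well: 9 of 12 averaged under 0.1 FPKM, and HNF4G was highest at 1.18 ± 0.257 FPKM in siGFPT2 and 0.942 ± 0.291 in siNC. Ciliated cell genes were low too, with 3 of 8 reaching 1 FPKM, led by the transcription factor RFX2 at 4.53 ± 0.300 FPKM in siGFPT2 and 4.72 ± 0.320 in siNC. Of 10 stromal, endothelial and blood genes 3 reached 1 FPKM, led by the collagen gene COL1A1 at 6.79 ± 1.26 FPKM in siGFPT2 and 6.42 ± 0.650 in siNC. Over the 131 other genes of all lists, 56 were tested, 0 passed the adjusted threshold in limma, and 28 lay above 0 and 28 below. An unadjusted limma p under 0.05 was seen for 2, KRT17 and KRT14, against 84 features (0.651%) of all 12896 tested. Both keratins were highest in siNC replicates 2 and 3. Of the tested list genes, KRT14 and the neuroendocrine gene SYP passed the filter only through siNC. RTKN2 and HNF4G passed it only through siGFPT2, so the signs of these genes carry no weight in the counts above and below 0.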

How the data were processed

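Bulk RNA sequencing libraries of NCI-H1975 cells were grouped by their treatment labels, siGFPT2 (n = 3) and siNC (n = 3), and columns were matched to samples through their names. The authors deposited FPKM values, for 60960 features. The tools named, per the submitters' processing notes, are featureCounts, HISAT2 and DESeq2. Their versions and the genome build were not given in the sources used here, nor is the annotation. Per the labels' protocols, oligo(dT) beads were used to enrich mRNA, read as paired ends; strand is not stated.

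Gene names came from a table of identifiers (60463 of 60605 Ensembl identifiers matched). Coordinates and exons are those of GENCODE 29 on GRCh38, and promoter sequences those of RefSeq on GRCh38.p14; none comes from the deposited table. Fragment numbers and depths were recovered from the steps of the FPKM values: 36980 of the 36981 features above 0 came out whole within 1e-05 fragments. For 53.9% the GENCODE 29 exon length served, and otherwise the smallest length that gave whole numbers, as for FOXA1, FOXA2, AGER, SOX2 and TP63, which can understate their fragments. Fragments are not independent molecules, so the limits at 0 and the counting error cover counting only.

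limma 3.58.1 in R 4.3.3, with a mean-variance trend, was fitted to log2(FPKM + 0.1) over all 6 libraries with group as the only term. Those features that averaged at least 1 FPKM were tested (12896), with two-sided p-values adjusted by the Benjamini-Hochberg method at a threshold of 0.05. Fold changes on this scale understate those of low genes. Members under 1 FPKM were read from the same fit with no filter. The model was tested on simulated data. Python 3.11.15 made the exact permutation tests and summaries. The 9 genes and the marker lists were chosen with earlier results of these data known. The naming rule took the 9 genes, GFPT2, neighbours of the lineage genes, and from each list the 3 highest genes and that with the smallest p; not all of these are described. ABCA3, LAMP3, SLC34A2, CLDN18, SFTPA1, SFTPA2, SFTPD, PDPN, AQP5, HOPX, EMP2, GPRC5A, KRT5, DSG3, GATA6, CEBPA, PTPRC, SCGB1A1 and SCGB3A1 were added after their values were seen. Alternatives were other pseudocounts, filters and scalings, limma-voom on recovered fragments, a replicate block and leaving out libraries.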

Additional observations from a re-analysis of the deposited data

How the results depend on the processing

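Under 15 alternatives, 0 features passed the adjusted threshold in limma or limma-voom, and so none of the lung identity genes tested, which were NKX2-1, FOXA2, AGER and SOX2 in most alternatives, 3 of them at a minimum mean of 5 FPKM and all 9 with no filter. By the same tools, the count at an unadjusted p under 0.05 ran from 16 (a minimum mean of 5 FPKM) to 754 (no filter). That count was 84 with all libraries, and 50 to 520 with 1 left out: 50 without siGFPT2 replicate 3, 54 without siGFPT2 replicate 1, 161 without siNC replicate 2 and 520 without siNC replicate 3. Without both siGFPT2 replicate 2 and siNC replicate 3 it was 751. The log2 fold changes of NKX2-1, FOXA2, AGER and SOX2 stayed below 0 in 59 of 59 values. NKX2-1 ran from -0.10 to -0.00, FOXA2 from -0.21 to -0.06, AGER from -0.23 to -0.08 and SOX2 from -0.15 to -0.02. FOXA2 came nearest to the threshold without siNC replicate 3 and siGFPT2 replicate 2 (-0.21, limma adjusted p = 0.720). SFTPC moved to 0.60 with a pseudocount of 0.01 FPKM, where 0 to 2 fragments decide it. Sign changes were seen for values near 0. The differences of mean log2 values, which carry no test here, ran from -0.28 to 0.11 for FOXA1, -0.21 to 0.11 for SFTPB, -0.02 to 0.22 for NAPSA and -0.32 to 0.16 for TP63. ABCA3 stood at 0.014 without siNC replicate 1 (-0.33 to 0.014 over single libraries left out), and SFTA3 at -0.038 with median centring, -0.032 with quantile normalization, -0.040 without siGFPT2 replicate 3 and -0.098 without siNC replicate 1 (-0.098 to 0.079); the cause was not tested. Median centring shifted every value by -0.05.

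Deviations of same-numbered libraries from their group means correlated at 0.47, -0.72 and -0.57, while siGFPT2 replicate 2 and siNC replicate 3 correlated at 0.79. Because deviations were taken within groups of 3 and this pair stood apart, the values cannot show whether same-numbered libraries were prepared together. With the replicate number as a block the count at an unadjusted p under 0.05 was 63 and the adjusted count 0. Low levels limit SFTPB and SFTPC, which rest on 0 to 7 fragments per library.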

Other observations

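Neuroendocrine genes, a lineage that lung adenocarcinoma can take on under treatment, were low. SYP, a synaptic vesicle protein, had 0.779, 1.07 and 1.09 FPKM in siGFPT2 and 1.17, 1.47 and 1.56 FPKM in siNC, so that the groups did not overlap (log2 fold change -0.48, 95% interval -0.96 to 0.00, limma adjusted p = 0.9999). With means of 0.978 FPKM in siGFPT2 and 1.40 in siNC, SYP passed the filter of 1 FPKM only through siNC. Its test and its lack of overlap are therefore no support for a difference. CHGA, a granule protein, had 0.378, 0.413 and 0.462 FPKM in siGFPT2 and 0.658, 0.725 and 0.716 FPKM in siNC, again without overlap, on 26 to 34 fragments in siGFPT2 and 44 to 53 in siNC. For both, the exact two-sided permutation test gave p = 0.1, the smallest that 3 against 3 libraries allow. Groups that did not overlap with siGFPT2 lower made up 1.36% of features that average at least 1 FPKM and 2.52% of those that average at least 0.1 FPKM. The lineage factors NEUROD1 and INSM1 had no fragments in siNC, and NEUROD1 had none in siGFPT2. These factors were singled out after their values were seen.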
